A study of Mus musculus with 12 samples.

Results

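Matrix metalloproteinases (MMPs) and their tissue inhibitors were described here by 9 of the 47069 genes in the count matrix: the proteinases Mmp2, Mmp3, Mmp11, Mmp13, Mmp14 and Mmp16 and the inhibitors Timp1, Timp2 and Timp3. They were picked by gene symbol, and all 9 had counts in every mouse. The data were RNA-seq read counts of tibia shafts of male mice at 8 weeks of age, with the marrow flushed out, from 3 groups of 4 mice. All groups were of mixed FVB and C57BL6 background. The WT mice came from a parallel colony, and in any comparison with WT the genotype and the colony cannot be told apart. Jrt;Sost-het mice carried the dominant Col1a1 Jrt/+ allele, a splice-site mutation in the gene of an alpha chain of collagen type I that causes severe osteogenesis imperfecta, and, by the study's methods, were Sost+/-. Jrt;Sost-ko mice carried Col1a1 Jrt/+ and were Sost-/-, a germline loss of the gene for sclerostin in every cell. The Jrt allele was thus shared by both groups that were compared to test the loss of Sost.

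MMPs are zinc-dependent enzymes that are made as inactive proforms and cut the proteins of the extracellular matrix. In bone, MMP13 is the main collagenase of rodents and cuts fibrillar collagen, MMP2 degrades denatured collagen, and the membrane-bound MMP14 cuts collagen at the cell surface and activates proMMP2. TIMPs block the active site of MMPs, and TIMP2 is also the bridge through which MMP14 captures proMMP2.

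The depth was 24366061 to 44418863 counts per mouse. Sost, the targeted gene, had 28.5 to 72.4 CPM, counts scaled to the library size, in WT mice, 27.1 to 70.2 CPM in Jrt;Sost-het mice and 0.328 to 1.28 CPM in Jrt;Sost-ko mice, the group labelled as lacking it. All 9 osteoblast and all 8 osteocyte markers of fixed lists had counts in each group, and the osteoblast list summed to 22669 to 69019 CPM. RNA of other tissues was present as well. The 16 genes of a skeletal muscle list summed to 34.2 CPM in Jrt;Sost-ko mouse 4 and to 34924 CPM in WT mouse 4, and the 8 neutrophil genes to 16014 to 29844 CPM over all mice. The 6 epidermal genes of another list summed to 117 and 540 CPM in WT mice 3 and 4 and to 2.05 to 3.98 CPM in the other mice. In such bulk samples, fewer cells of a type and less RNA per cell cannot be told apart.

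The promoters of 4 members are shown because Mmp13 and Mmp3 are textbook targets of AP-1, and Mmp13 of Runx2 in osteoblasts, while Mmp14 and Timp1 varied together between mice as described further on. Each sequence is the 250 bases before the RefSeq start (GRCm38.p6), 5′ to 3′ on the strand of the gene, and capitals mark the AP-1 motif TGANTCA, the Runx motif ACCACA and the TATA box TATAAA, searched on both strands.
Mmp13, chr9:7272264-7272513, plus strand: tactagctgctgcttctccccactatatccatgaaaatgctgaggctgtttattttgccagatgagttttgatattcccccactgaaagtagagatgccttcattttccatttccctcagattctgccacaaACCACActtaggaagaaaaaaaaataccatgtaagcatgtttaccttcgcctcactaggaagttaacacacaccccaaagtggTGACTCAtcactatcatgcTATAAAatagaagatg
Mmp3, chr9:7445572-7445821, plus strand: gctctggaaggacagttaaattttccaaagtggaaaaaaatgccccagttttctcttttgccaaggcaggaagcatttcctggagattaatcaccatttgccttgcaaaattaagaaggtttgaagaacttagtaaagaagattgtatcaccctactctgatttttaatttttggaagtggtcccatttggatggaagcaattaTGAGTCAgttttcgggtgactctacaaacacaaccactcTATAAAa
Mmp14, chr14:54431348-54431597, plus strand: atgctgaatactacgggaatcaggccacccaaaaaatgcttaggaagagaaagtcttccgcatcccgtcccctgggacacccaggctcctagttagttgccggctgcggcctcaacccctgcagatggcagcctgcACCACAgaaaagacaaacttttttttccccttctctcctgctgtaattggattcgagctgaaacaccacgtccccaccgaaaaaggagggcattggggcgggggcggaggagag
Timp1, chrX:20869916-20870165, plus strand: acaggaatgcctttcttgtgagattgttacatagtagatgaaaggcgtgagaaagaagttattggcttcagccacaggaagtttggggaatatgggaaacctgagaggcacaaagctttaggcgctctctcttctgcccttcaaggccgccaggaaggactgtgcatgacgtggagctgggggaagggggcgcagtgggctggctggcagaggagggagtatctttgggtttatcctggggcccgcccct
Of the 9 members, 7 had a promoter in the table, and Mmp2 and Mmp16 had none there. Mmp13 held an AP-1 motif that began 35 bases before the start, a Runx motif at 118 bases and a TATA box at 16 bases. Mmp3 held an AP-1 motif at 46 bases and a TATA box at 7 bases. Mmp14 held a Runx motif at 114 bases and no AP-1 motif. Timp1, Timp2, Timp3 and Mmp11 held none of the 3 motifs in this window. For Mmp11 and Timp2 the RefSeq start lay 3994 and 329 bases inside the gene span given below. Their windows thus lay within the gene and not before its outermost start. Among 32851 mouse promoters of the same length, 6.75% held the AP-1 motif, 14.0% the Runx motif, 12.4% the TATA box and 1.01% both AP-1 and Runx motifs. Mmp11, Timp1, Timp2, Timp3 and Mmp14 each held the Sp1 box GGGCGG on either strand, as did 32.7% of all promoters, and Mmp13 and Mmp3 did not. A match of letters is a description of the sequence and not a site of binding.

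The members lie on 7 chromosomes of GRCm38. Mmp13 (chromosome 9, 7272514 to 7283331, plus strand) and Mmp3 (chromosome 9, 7445822 to 7455975, plus strand) belong to the cluster of MMP genes and are 162 kb apart, with 2 other MMP genes in between. Mmp2 lies on chromosome 8 (92827291 to 92853420, plus), Mmp14 on chromosome 14 (54431612 to 54445364, plus), Mmp16 on chromosome 4 (17852893 to 18119145, plus) and Mmp11 on chromosome 10 (75923222 to 75936496, minus). Timp1 lies on chromosome X (20870166 to 20874735, plus), Timp3 on chromosome 10 (86300372 to 86349506, plus) and Timp2 on chromosome 11 (118301069 to 118355740, minus), 16.3 Mb from Sost. Counts of some members could include reads of genes on the other strand, since the strand setting of the counting is not given in the sources used here. Mmp11 shared 155 exonic bases with Chchd10, which had 37.0 to 118 CPM, and Timp3 shared 1733 exonic bases with Syn3, which had 0.265 to 1.01 CPM. Timp1 lies within Syn1 and shared no exonic bases with it.

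Per exonic length, Mmp13 was the most abundant of the 9 transcripts, at 197 ± 75.3 CPM per kilobase of exon (RPKM; mean ± SD, n = 12 mice). Mmp2 followed at 95.4 ± 27.4 RPKM and Timp2 at 84.2 ± 14.5 RPKM. Mmp2 was above Timp2 in 9 of 12 mice, so that these neighbours were not set apart by the spread between mice. Timp1 (37.7 ± 13.2 RPKM) and Mmp14 (36.2 ± 9.43 RPKM) were likewise interleaved, with Timp1 the higher in 7 of 12 mice. Timp3 came next at 21.4 ± 2.43 RPKM. A gap of 7.15-fold then separated Timp3 from the 3 rare transcripts Mmp11 (2.996 ± 0.609 RPKM), Mmp16 (2.48 ± 0.826 RPKM) and Mmp3 (2.22 ± 1.78 RPKM), whose ranges overlapped with each other and not with that of Timp3. Of the other MMPs, Mmp9 (303 ± 35.3 RPKM), a gelatinase known from osteoclasts and neutrophils, was above Mmp13, and Mmp8 (174 ± 36.4 RPKM), the collagenase of neutrophils, was just below it. Timp4 had 1.29 ± 0.545 RPKM. Mmp1a, Mmp1b and Mmp7 had no counts in any mouse.

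**Figure D1:**
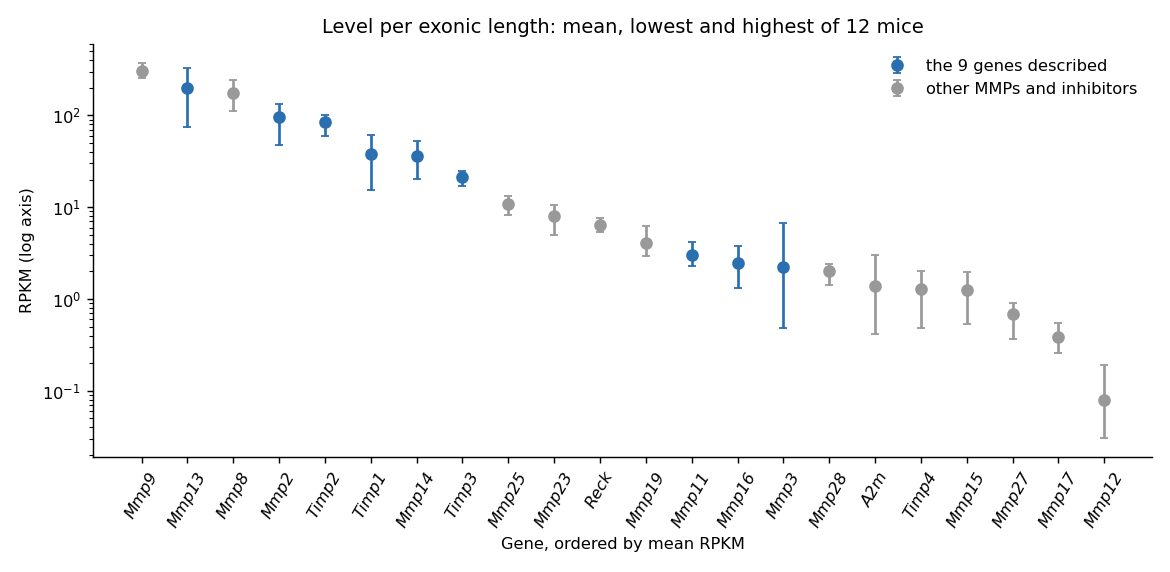
Level of each MMP and inhibitor per exonic length in RPKM (log axis), with the mean (point) and the lowest and highest of 12 mice (bars); genes at 0 in any mouse are left out. Mmp13 sits second of all, at a mean of 197 RPKM, and Mmp11, Mmp16 and Mmp3 sit at 2.22 to 2.996 RPKM.

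Mmp13, the collagenase, differed more between mice of 1 group than between groups. In WT mice its level was 665, 201, 562 and 785 CPM (mice 1 to 4). In Jrt;Sost-het mice it was 888, 365, 616 and 361 CPM. In Jrt;Sost-ko mice it was 503, 560, 523 and 284 CPM. WT mouse 2 was the lowest of all 12 and Jrt;Sost-het mouse 1 the highest, 4.42-fold apart, and all Jrt;Sost-ko mice lay inside the range of the WT mice. The means were 553 ± 252 CPM in WT, 557 ± 250 CPM in Jrt;Sost-het and 467 ± 125 CPM in Jrt;Sost-ko (SD, n = 4 each). The 9 chondrocyte markers summed to 4937 CPM in Jrt;Sost-het mouse 1 and 4079 CPM in WT mouse 4, the mice highest in Mmp13, against 645 to 1982 CPM in the other 10 mice. Mmp13 is also a gene of hypertrophic cartilage, and the part of growth plate RNA in its level was not tested.

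Mmp2, the gelatinase, was lowest in WT mice 1 and 2. The WT mice had 205, 160, 316 and 440 CPM. The Jrt;Sost-het mice had 392, 377, 271 and 278 CPM, and the Jrt;Sost-ko mice 335, 387, 452 and 244 CPM. Every Jrt mouse was above WT mice 1 and 2, and WT mouse 4 was above all but Jrt;Sost-ko mouse 3, so the groups overlapped. Group means were 280 ± 125 CPM in WT, 330 ± 64.1 CPM in Jrt;Sost-het and 355 ± 87.7 CPM in Jrt;Sost-ko.

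Among the WT mice, the membrane-type enzymes Mmp14 and Mmp16 were lowest in mouse 2 and highest in mouse 4. So was every other member but Timp3, which was lowest in mouse 2 and highest in mouse 3. Mmp14 was at 165, 121, 220 and 290 CPM in WT mice, at 279, 202, 210 and 176 CPM in Jrt;Sost-het mice and at 206, 237, 311 and 169 CPM in Jrt;Sost-ko mice. Its lowest mouse was WT mouse 2 and its highest Jrt;Sost-ko mouse 3. Mmp16, the rarer membrane-type MMP, was at 13.6, 11.4, 19.98 and 28.8 CPM in WT, at 27.7, 19.7, 15.4 and 16.7 CPM in Jrt;Sost-het and at 23.9, 30.9, 32.9 and 17.3 CPM in Jrt;Sost-ko mice. Mice 2 and 3 of the last group were above every other mouse, while mouse 4 of that group lay among the mice of both other groups.

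Mmp11, or stromelysin 3, and Mmp3, stromelysin 1, had the lowest mean CPM of the members. Mmp11 was at 10.2, 6.30, 6.71 and 11.6 CPM in WT, at 8.75, 8.62, 9.01 and 8.97 CPM in Jrt;Sost-het and at 6.97, 6.72, 9.53 and 6.49 CPM in Jrt;Sost-ko mice. The Jrt;Sost-het mice were within 1.04-fold of each other, 3 of the 4 Jrt;Sost-ko mice were below all of them, and the WT mice spanned both. Mmp3 was at 1.93, 1.27, 1.97 and 6.37 CPM in WT, at 12.2, 4.23, 2.81 and 3.64 CPM in Jrt;Sost-het and at 4.27, 6.78, 0.879 and 1.61 CPM in Jrt;Sost-ko mice. Mmp3 was the most variable member, 13.9-fold from Jrt;Sost-ko mouse 3 to Jrt;Sost-het mouse 1.

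Among Timp1, Timp2 and Timp3, the inducible Timp1 varied most. Its level was 20.3, 13.8, 28.8 and 45.6 CPM in WT, 43.0, 35.3, 27.3 and 26.5 CPM in Jrt;Sost-het and 37.2, 54.4, 43.1 and 26.5 CPM in Jrt;Sost-ko mice. As with Mmp2, WT mice 1 and 2 were the lowest of the 12 and WT mouse 4 among the highest. Timp2, expressed more evenly, was at 276, 240, 365 and 392 CPM in WT, at 387, 344, 359 and 288 CPM in Jrt;Sost-het and at 323, 349, 381 and 231 CPM in Jrt;Sost-ko mice. Timp3, the TIMP that binds to the matrix, was at 177, 168, 194 and 188 CPM in WT, at 150, 159, 186 and 158 CPM in Jrt;Sost-het and at 204, 189, 182 and 138 CPM in Jrt;Sost-ko mice. It was the steadiest member, 1.48-fold from the lowest to the highest mouse. Jrt;Sost-het mice 1, 2 and 4 were below all WT mice, and Jrt;Sost-het mouse 3 was above 2 of them.

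**Figure D2:**
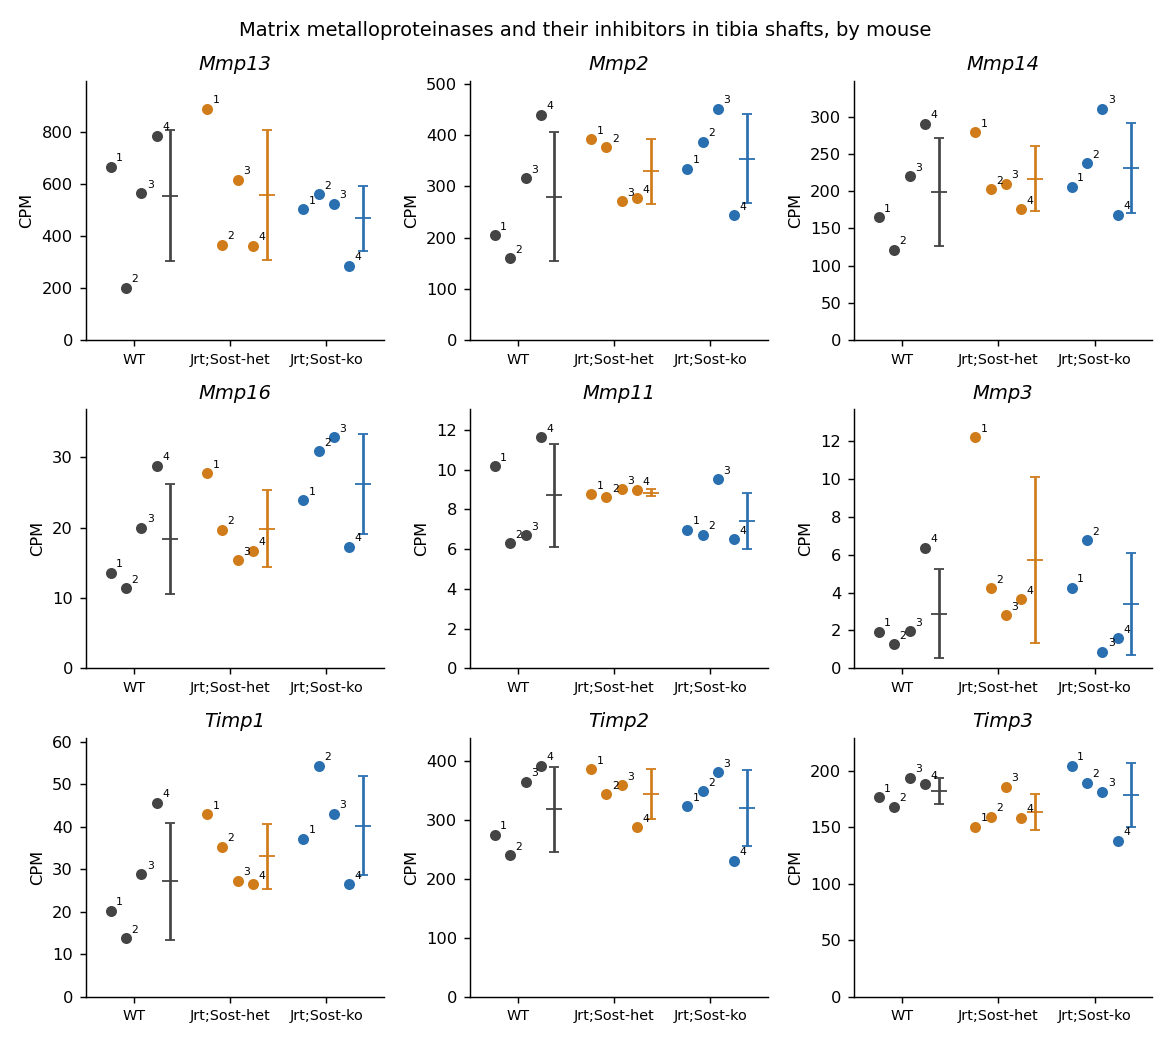
CPM of each member in every mouse (points, numbered by mouse; linear axis from 0), with the group mean and SD (n = 4) as a bar at the right of each group. The groups overlap in all 9 panels, and WT mice 1 and 2 are low for Mmp2, Mmp14, Mmp16 and Timp1.

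The loss of Sost on the Jrt background was tested by Jrt;Sost-ko versus Jrt;Sost-het mice. No member passed the test (edgeR quasi-likelihood test, Benjamini-Hochberg adjusted over 16739 genes; adjusted p 0.901 to 0.946). In this comparison 1 gene, Sost, passed, which is 0.00597% of the genes tested. No member had an unadjusted p under 0.05 by edgeR, against 5.02% of all genes, and no member was without overlap between the groups, against 3.05% of all genes. DESeq2, which called 15 genes, called none of the 9. The limma-voom fit called no gene at all, and Sost had an adjusted p of 0.479 in it. Mmp11 and Mmp16 were at an unadjusted p under 0.05 in the limma-voom fit (0.0424 and 0.0499), beside 8.86% of all genes. The widest differences were those of Mmp3, at a log2 fold change of -0.76 ± 0.67 (SE), and Mmp16, at 0.41 ± 0.24. Timp1 was at 0.29 ± 0.23, Mmp13 at -0.25 ± 0.32 and Mmp11 at -0.25 ± 0.14. Mmp2 (0.11 ± 0.20), Mmp14 (0.09 ± 0.20), Timp2 (-0.10 ± 0.16) and Timp3 (0.13 ± 0.12) were closest to 0. Exact two-sided permutation tests of the log2 CPM gave p from 0.143 for Mmp11 to 0.771 for Mmp14, where 4 against 4 mice allow no p below 0.0286. The 95% intervals of the fold ran from 0.509 to 1.39 for Mmp13, from 0.789 to 1.48 for Mmp2, from 0.781 to 1.46 for Mmp14 and from 0.902 to 1.33 for Timp3. For Mmp3 the interval, 0.208 to 1.68, was too wide to leave out large changes in either direction. Beside these values, the muscle list had a median log2 fold change of -0.99 with 16 of 16 genes lower in Jrt;Sost-ko mice, and the chondrocyte list one of -1.72 with 8 of 9 lower. The osteoblast list had one of 0.35 with 8 of 9 genes higher, and the osteocyte list one of 0.40 with 7 of 8 higher. With muscle genes as a covariate no member was called, and Timp3 was at 0.25 (unadjusted p = 0.0212, edgeR), 1 of 9 members beside 5.44% of all genes. The parts of cartilage and of osteoblast and osteocyte RNA were not tested.

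Jrt;Sost-het against WT mice compared the Jrt allele, the loss of 1 copy of Sost and the colony together. No member passed (adjusted p 0.99998 for each by the same edgeR test over 16775 genes), as did no other gene, 0%. None had an unadjusted p under 0.05, against 2.14% of all genes, and none was without overlap, against 1.5%. Timp3 came closest, at a log2 fold change of -0.15 ± 0.08 with an unadjusted p of 0.0975 and an exact permutation p of 0.0857. Mmp3 was at 0.98 ± 0.62, Timp1 at 0.28 ± 0.35 and Mmp2 at 0.23 ± 0.31. Mmp14 (0.12 ± 0.26), Timp2 (0.11 ± 0.17), Mmp16 (0.10 ± 0.31), Mmp11 (0.02 ± 0.20) and Mmp13 (0.01 ± 0.44) were nearer to 0. For Mmp13 the interval of the fold, 0.504 to 2.003, held changes of that size in both directions, while that of Timp3 was 0.788 to 1.02. The median over the members was 0.11, with 8 of 9 above 0, against a median of 0.004 and 51.3% of genes above 0 over all genes tested. Without WT mouse 2 it was -0.05, with 3 of 9 above 0, and without Jrt;Sost-het mouse 1 it was 0.03, with 5 of 9 above 0. Lists of several cell types lay to the same side. Above 0 were 9 of 9 osteoblast genes (median 0.20), 9 of 9 chondrocyte genes (0.37) and 8 of 9 fibroblast and tendon genes (0.23). So were 5 of 5 endothelial genes (0.21), 5 of 5 adipocyte genes (0.54) and 7 of 7 macrophage genes (0.07). The osteocyte list had 6 of 8 (0.07) and the muscle list 9 of 16 (0.08) above 0. Other lists lay lower, with 0 of 8 neutrophil genes (-0.08), 0 of 6 erythroid genes (-0.23) and 1 of 9 osteoclast genes (-0.07) above 0. Of the epidermal genes, 0 of 3 tested were above 0 (-5.2). No gene was called in this comparison, and the part of these lists in the members' values was not tested. With muscle genes as a covariate, Timp3 was at -0.18 (unadjusted p = 0.0338, edgeR), 1 of 9 members beside 3.36% of all genes. By limma-voom, Mmp3 was at 1.22 (unadjusted p = 0.0449), 1 of 9 members beside 4.59% of all genes. No member was called in either fit.

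The values of Jrt;Sost-het against WT mice rested on which mice of both groups were in the fit. Without WT mouse 2, Mmp13 had a log2 fold change of -0.27, Mmp14 of -0.05, Mmp16 of -0.07, Mmp2 of 0.04 and Timp1 of 0.06. Without Jrt;Sost-het mouse 1, Mmp13 was at -0.31, Mmp14 at -0.02, Mmp16 at -0.10, Mmp2 at 0.14 and Timp1 at 0.13. Without WT mouse 4, Mmp3 was at 1.72 (unadjusted p = 0.0128) and Timp1 at 0.65 (unadjusted p = 0.0433), both by edgeR. These were 2 of 9 members, beside 9.4% of all genes. Without Jrt;Sost-het mouse 3, Timp3 was at -0.22 (unadjusted p = 0.0159, edgeR), 1 of 9 members beside 3.14% of all genes. Without WT mice 3 and 4, the mice with epidermal transcripts, 2 WT mice remained and Mmp2 had a log2 fold change of 0.86 (adjusted p = 0.122), Timp1 of 0.96 (adjusted p = 0.137), Mmp16 of 0.68 (adjusted p = 0.204) and Mmp14 of 0.61 (adjusted p = 0.189). None of the 9 was called in that edgeR fit, where 6 of them, and 19.8% of all genes, were at an unadjusted p under 0.05. WT mice 1 and 2 also had the lowest sums of the osteoblast list of all 12 mice, 29000 and 22669 CPM, against 34278 CPM or more in every other mouse.

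Jrt;Sost-ko against WT mice compared both alleles and the colony together. No member passed (edgeR, adjusted p 0.9996 for each over 17155 genes), and 1 gene, Sost, did, or 0.00583%. None had an unadjusted p under 0.05, against 3.89% of all genes, and none was without overlap, against 2.36%. The widest differences were Timp1 at a log2 fold change of 0.57 ± 0.37 and Mmp16 at 0.51 ± 0.32, with exact permutation p of 0.2 each. Mmp2 was at 0.34 ± 0.32, Mmp14 at 0.21 ± 0.28, Mmp3 at 0.23 ± 0.71, Mmp11 at -0.23 ± 0.23 and Mmp13 at -0.24 ± 0.39. Timp2 (0.01 ± 0.20) and Timp3 (-0.02 ± 0.12) were level with WT within 0.733 to 1.39-fold and 0.810 to 1.19-fold, the limits of their 95% intervals. Without WT mice 3 and 4, Timp1 was at 1.24 and Mmp16 at 1.08 (adjusted p = 0.304 for both, edgeR), and 4 members had an unadjusted p under 0.05 beside 12.7% of all genes. Each group of mice enters 2 of the 3 comparisons, so the 3 sets of values are not independent.

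Beside the values of Jrt;Sost-ko against WT mice stand those of osteoblast, osteocyte, muscle and cartilage markers. The osteoblast list had a median log2 fold change of 0.62, with 9 of 9 genes higher. The osteocyte list had one of 0.47, with 7 of 8 higher. The part of these 2 lists in the members' values was not tested. The muscle list had a median log2 fold change of -0.93 in Jrt;Sost-ko against WT mice, with 16 of 16 genes lower, and the chondrocyte list one of -1.38, with 8 of 9 lower. With muscle genes as a covariate, Timp1 was at 0.85 (unadjusted p = 0.00828, adjusted p = 0.379), Mmp16 at 0.73 (unadjusted p = 0.00411, adjusted p = 0.379), Mmp2 at 0.59 (unadjusted p = 0.0115, adjusted p = 0.392) and Mmp14 at 0.41 (unadjusted p = 0.0328, adjusted p = 0.433), by edgeR. These 4 of the 9 members stood beside 10.8% of all genes at an unadjusted p under 0.05 in that fit, and no member was called.

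**Figure D3:**
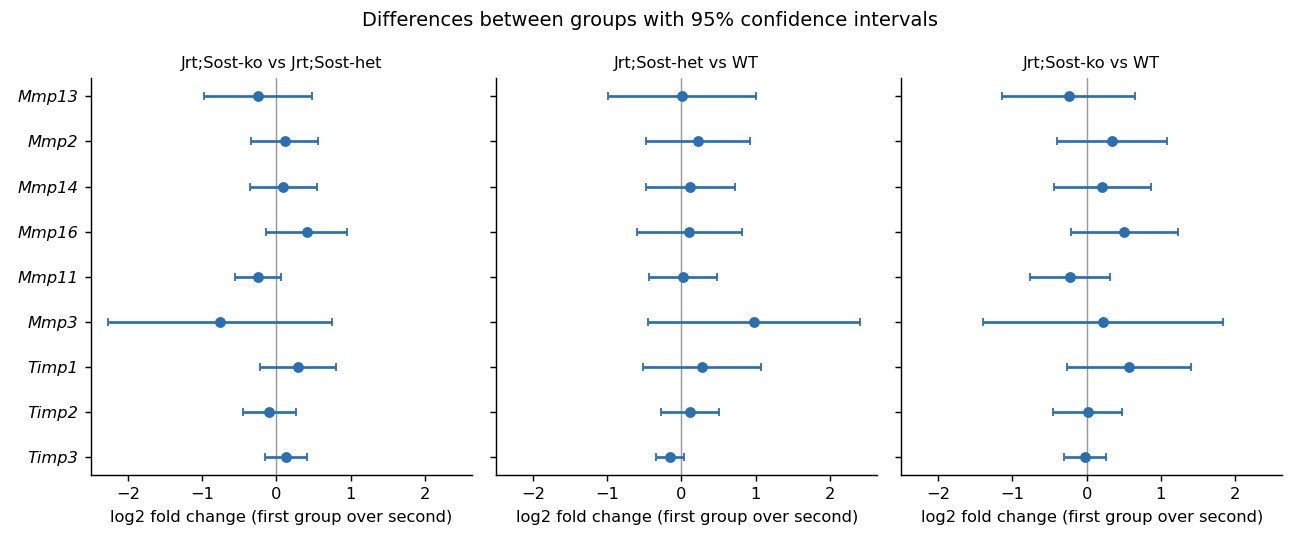
Log2 fold change of each member (point) with its 95% confidence interval (bar) from the edgeR fits, 4 against 4 mice, for the 3 comparisons. All 27 intervals cross 0, and those of Mmp3 are the widest.

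The spread between mice of the same group set these intervals. The SD of log2 CPM within groups was 0.68 for Mmp13, 0.53 for Timp1, 0.47 for Mmp16, 0.46 for Mmp2 and 0.41 for Mmp14, against a median of 0.13 over 10430 genes with a mean of at least 10 CPM. These SDs exceeded those of 97.6%, 96.4%, 95.7%, 95.5% and 94.2% of these genes, respectively. Timp2, at 0.29, exceeded 86.8% and Timp3, at 0.17, 64.8%.

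Mmp2, Mmp14, Mmp16 and Timp1 went up and down together over the 12 mice. Pearson r of their log2 CPM was 0.89 to 0.96 for the 6 pairs, and 0.90 to 0.97 after each group was centred on its mean, so that the relation was there between mice of the same group. Timp2 went with Mmp14 (r = 0.89) and Mmp2 (r = 0.85), and less with Timp1 (r = 0.76) and Mmp16 (r = 0.74). After centring, r of Timp2 was 0.93 with Mmp14, 0.91 with Mmp2, 0.89 with Mmp16 and 0.88 with Timp1. Mmp13 had r of 0.57 to 0.78 with these 5 genes. Timp3 had lower values, with r of 0.48 or less with every other member, and so did Mmp11 and Mmp3, with r of 0.59 or less. After centring, their highest r was 0.64 for Timp3 with Timp2, 0.62 for Mmp11 with Mmp14 and 0.70 for Mmp3 with Timp1. All points share a library per mouse, with its mixture of cells and its depth, and these r are a description with no test.

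**Figure D4:**
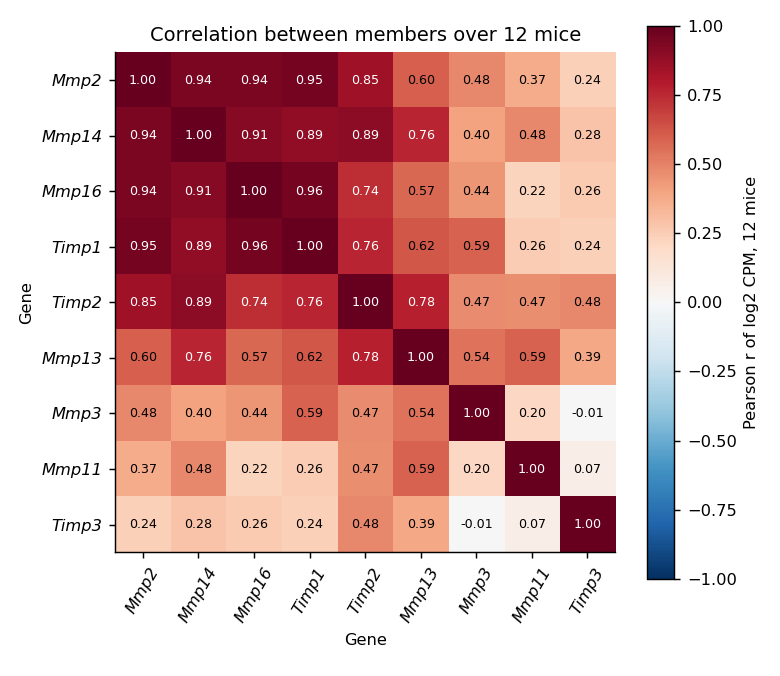
Pearson r of log2 CPM between each pair of members over 12 mice, given by colour and number. Mmp2, Mmp14, Mmp16 and Timp1 form a block of r from 0.89 to 0.96, and the row of Timp3 holds values of 0.48 or less.

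Those 4 genes followed the osteoblast list, the mean log2 CPM of Bglap, Bglap2, Alpl, Ibsp, Sp7, Runx2, Col1a1, Col1a2 and Tnn. Timp1 had r = 0.98 (rho = 0.96), Mmp16 r = 0.97 (rho = 0.97), Mmp2 r = 0.97 (rho = 0.97) and Mmp14 r = 0.90 (rho = 0.90). The permutation p for r was 1e-05, the smallest that 100000 permutations can give, for the first 3 and 4e-05 for Mmp14, and 0.00104 and 0.00217 when adjusted over 17245 genes; for rho it was 1e-05 for Mmp2 and Mmp16, 3e-05 for Timp1 and 0.00018 for Mmp14, adjusted 0.00254 to 0.00774. Without WT mice 1 and 2, which lay farthest from the list median, r was 0.97, 0.98, 0.92 and 0.82 in the same order. Many genes did the same, as 11.9% of all genes tested had an adjusted p under 0.05 for r with this list and 2.08% an r over 0.9. Timp2 had r = 0.76 (p = 0.0046, adjusted 0.0430; rho = 0.76, p = 0.00634, adjusted 0.0586), which dropped to 0.60 without these mice. After centring on the group means, r of Timp2 with this list was 0.91. Mmp13 (r = 0.53, p = 0.0767; rho = 0.38, p = 0.227), Mmp3 (r = 0.49, p = 0.109), Timp3 (r = 0.24, p = 0.444) and Mmp11 (r = 0.22, p = 0.494) did not pass the permutation test after adjustment. The members' r with the other marker lists, such as those of osteocytes and of fibroblasts and tendon, was not computed. Both of these lists were also lowest in WT mouse 2, at sums of 297 and 287 CPM. The relation is thus not shown to be particular to osteoblasts.

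Mmp13 followed the osteoclast list (Acp5, Ctsk, Calcr, Ocstamp, Dcstamp, Atp6v0d2, Oscar, Nfatc1 and Itgb3), with r = 0.96 and rho = 0.93. The permutation p was 1e-05 for r (adjusted 0.0246 over 17245 genes) and 7e-05 for rho (adjusted 0.0817). Without WT mouse 2 and Jrt;Sost-het mouse 1, the mice farthest from the median, r was 0.91, and after centring on the group means it was 0.96. Few genes did the same, as 0.145% of genes had an r over 0.9 with this list and 0.0290% an r above that of Mmp13. No other member passed with this list after adjustment (r of 0.19 to 0.79, adjusted permutation p of 0.357 or more). The osteoclast list summed to 1234 to 2456 CPM in WT, 1442 to 2432 CPM in Jrt;Sost-het and 1610 to 2085 CPM in Jrt;Sost-ko mice. With the chondrocyte list Mmp13 had r = 0.59 (permutation p = 0.0427, adjusted 0.411), which was 0.09 without the same 2 mice. Mmp3 had the highest r of the members with that list, 0.61 (permutation p = 0.0368, adjusted 0.409), and 0.29 without these mice. With the muscle list no member passed after adjustment (adjusted permutation p of 0.0557 or more for r), and Timp2 was closest with r = 0.74, which was 0.10 without WT mouse 2 and Jrt;Sost-ko mouse 4. In all, 36 relations between members and lists were computed, those with the osteoblast, osteoclast, chondrocyte and muscle lists.

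**Figure D5:**
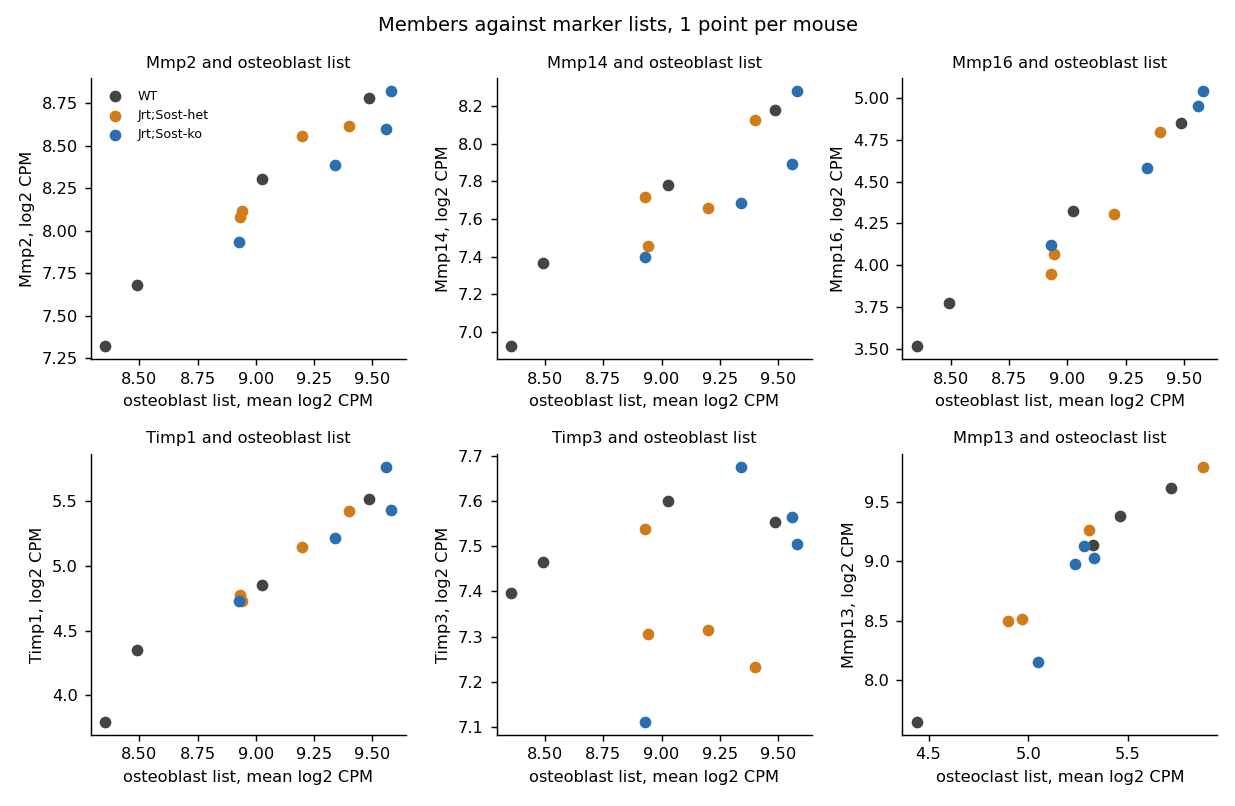
Log2 CPM of 6 members against the mean log2 CPM of a marker list, 1 point per mouse, coloured by group (4 mice each). Mmp2, Mmp14, Mmp16 and Timp1 lie along the osteoblast list (r of 0.90 to 0.98) and Mmp13 with the osteoclast list (r of 0.96), while Timp3 is scattered (r of 0.24).

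The ratio of Mmp2 to Mmp14 within a mouse was steadier than either level. In RPKM it was 2.19 to 3.30 over the 12 mice, a span of 1.503-fold, where Mmp2 itself spanned 2.83-fold and Mmp14 2.56-fold. The same held for Mmp14 over Timp2, at 1.62-fold against 1.70-fold for Timp2. It also held for Mmp13 over Timp1, at 3.18-fold against 4.42-fold for Mmp13 and 3.94-fold for Timp1. Mmp2 over Timp2, at 1.78-fold, was not steadier than Timp2. Mmp2 over Timp2 was 0.768 to 1.30 in WT, 0.873 to 1.27 in Jrt;Sost-het and 1.20 to 1.37 in Jrt;Sost-ko mice. Mmp13 over Timp1 was 4.83 to 10.9 in WT, 3.43 to 7.49 in Jrt;Sost-het and 3.42 to 4.49 in Jrt;Sost-ko mice. Mmp14 over Timp2 was 0.330 to 0.484 in WT, 0.382 to 0.472 in Jrt;Sost-het and 0.417 to 0.533 in Jrt;Sost-ko mice. For Mmp13 over Timp1 the WT mice were all above the Jrt;Sost-ko mice, the lowest at 4.83 against a highest of 4.49. Neither Mmp13 nor Timp1 was without overlap on its own, and the share of other gene ratios without overlap was not computed. For the ratios to Timp2 every pair of groups overlapped. No test was made of the ratios.

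The genes whose pattern was most like that of a member, by Pearson r over 12 mice among 10429 genes, follow. For Mmp2 they were Tmtc2 (0.99), Plod1 (0.98), a lysyl hydroxylase of collagen, and Boc (0.98). For Mmp14 they were Pcdh18, Slit2 and Chpf (0.97 to 0.98). For Mmp16 they were Col24a1 (0.99), a fibrillar collagen of bone, Bambi (0.98) and Col1a1 (0.98). Timp1 was closest to the matrix genes Sparc (0.99) and Bgn (0.98) and to Sec24d (0.98), which serves the export of collagen from the endoplasmic reticulum. Timp2 was closest to Antxr1, Mxra8 and Col16a1 (0.95 each). Mmp13 was closest to Fblim1 (0.95), C77080 (0.94) and Shtn1 (0.94), and Timp3, at lower values, to Ercc5 (0.84), Gab2 (0.82) and Ppp3ca (0.80). These are the highest of many r and carry no test.

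Of the other MMPs, 10 of 17 passed the filter on low counts, and none was called in any comparison. Mmp9 was at 971 CPM in Jrt;Sost-ko against 1119 CPM in Jrt;Sost-het mice (log2 fold change -0.20 ± 0.11, unadjusted p = 0.0963 by edgeR) and 1127 CPM in WT mice (-0.21 ± 0.10, unadjusted p = 0.0671). Mmp19 was at 16.7 CPM in Jrt;Sost-ko, 13.7 CPM in Jrt;Sost-het and 12.7 CPM in WT mice, with an unadjusted p of 0.0479 against WT by edgeR. In Jrt;Sost-het against WT mice, Mmp28 (0.23 ± 0.15) and Mmp23 (0.29 ± 0.24) had the smallest p. Of the inhibitors, A2m, the plasma proteinase inhibitor alpha-2-macroglobulin, was at 0.54 ± 0.38 and the membrane-anchored Reck at 0.10 ± 0.12 in Jrt;Sost-ko versus Jrt;Sost-het mice. Against WT, A2m was at 0.51 ± 0.46 and Reck at 0.06 ± 0.13 in Jrt;Sost-ko mice, and Timp4 at 0.27 ± 0.47 and Reck at -0.04 ± 0.12 in Jrt;Sost-het mice.

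Genes that activate or clear MMPs gave no call among 13 of 14 tested. Plaur, the urokinase receptor, was at 57.2 CPM in Jrt;Sost-ko and 64.5 CPM in Jrt;Sost-het mice without overlap of the groups (log2 fold change -0.17 ± 0.05, unadjusted p = 0.0111, adjusted p = 0.901 by edgeR). Plau, urokinase, was at 28.1 CPM in Jrt;Sost-het and 24.3 CPM in WT mice, again without overlap (0.20 ± 0.07, unadjusted p = 0.0244, adjusted p = 0.99998 by edgeR). Bsg, an inducer of MMPs, was at 435 CPM in Jrt;Sost-het and 464 CPM in WT mice, also without overlap (-0.09 ± 0.06). In Jrt;Sost-ko versus Jrt;Sost-het mice 1 of the 13 genes was without overlap, beside 3.05% of all genes tested. In Jrt;Sost-het against WT mice it was 2 of the 13, beside 1.5%. The genes named had the smallest p of their list. Furin, the proprotein convertase that activates MMP14, was at 0.08 ± 0.06 in Jrt;Sost-ko against WT mice. Pcsk5, another convertase, was at 0.24 ± 0.17 against Jrt;Sost-het and 0.36 ± 0.25 against WT mice.

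Of the related ADAM and ADAMTS proteinases, 25 of 26 were tested and none was called. Adamts16, a rare transcript, was at 0.427 CPM in Jrt;Sost-ko, 1.69 CPM in Jrt;Sost-het and 0.528 CPM in WT mice. Its log2 fold change was -1.95 ± 0.53 for Jrt;Sost-ko versus Jrt;Sost-het (unadjusted p = 0.00551, adjusted p = 0.901, no overlap) and 1.65 ± 0.65 for Jrt;Sost-het against WT mice (unadjusted p = 0.0334, adjusted p = 0.99998, both by edgeR). These values share the Jrt;Sost-het mice. In Jrt;Sost-ko versus Jrt;Sost-het mice 1 of the 25 genes was without overlap, beside 3.05% of all genes tested. Adam33 was at -0.42 ± 0.17 in Jrt;Sost-ko versus Jrt;Sost-het mice, and Adamts18 at 0.65 ± 0.22 in Jrt;Sost-het against WT mice. Adamts15 (0.54 ± 0.21) and Adamts17 (0.57 ± 0.27) had the smallest p in Jrt;Sost-ko against WT mice. Of the 5 cathepsins and Fap, none was called. Fap, a collagen-trimming serine protease of the cell surface, was at 0.18 ± 0.14 in Jrt;Sost-ko versus Jrt;Sost-het, 0.14 ± 0.21 in Jrt;Sost-het against WT and 0.32 ± 0.23 in Jrt;Sost-ko against WT mice. Ctsb was at 0.06 ± 0.09 and 0.07 ± 0.09 in the comparisons of Jrt;Sost-ko mice, and Ctsl at 0.09 ± 0.15 in Jrt;Sost-het against WT mice.

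Transcription factors and the PTH receptor that act upstream of Mmp13 were not called either, with 11 of 12 tested. Fosb, a subunit of AP-1, was at 1.78 CPM in Jrt;Sost-ko, 2.997 CPM in Jrt;Sost-het and 1.66 CPM in WT mice, with an unadjusted p of 0.0305 for Jrt;Sost-het against WT by edgeR (0.84 ± 0.33). Fos was at 0.65 ± 0.42 in the same comparison. Junb, another AP-1 subunit, was at 0.28 ± 0.18 in Jrt;Sost-ko versus Jrt;Sost-het and 0.40 ± 0.19 against WT mice, and Atf4 at 0.16 ± 0.08 against WT.

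Matrix proteins that MMPs cut gave no call among 12 tested. Fn1, fibronectin, was at 1183 CPM in Jrt;Sost-ko and 1854 CPM in Jrt;Sost-het mice (log2 fold change -0.64 ± 0.25, unadjusted p = 0.0323, adjusted p = 0.901 by edgeR) and at 1379 CPM in WT mice (0.42 ± 0.32 for Jrt;Sost-het against WT). Col1a2 was at 0.41 ± 0.19 in Jrt;Sost-ko versus Jrt;Sost-het and 0.62 ± 0.30 against WT mice, and Col1a1 at 0.68 ± 0.34 against WT. Dcn, decorin, was at 0.28 ± 0.21 in Jrt;Sost-het against WT mice. Col1a1 and Col1a2 are also in the osteoblast list, of which 8 of 9 genes in Jrt;Sost-ko versus Jrt;Sost-het (median log2 fold change 0.35) and 9 of 9 in Jrt;Sost-ko against WT mice (median 0.62) were above 0, none of them called. In Jrt;Sost-het against WT mice all 9 were above 0 as well (median 0.20). Over all genes tested, 50.4%, 49.1% and 51.3% were above 0 in these comparisons.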

How the data were processed

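Poly(A) RNA of the tibia shafts was sequenced in paired ends, and the authors aligned reads with STAR to GRCm38. The counter, its strand setting and the annotation release are not given in the sources used here. The authors deposited raw counts per gene, which were used as they stand. Their 9 comparison tables hold fold changes and p-values of their own and 96 columns of counts per mouse, and were not used. Groups came from the sample labels, with 4 mice each, numbered in accession order.

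For each comparison, the 8 mice were fitted in edgeR 4.0.16 (filterByExpr, TMM, glmQLFit and glmQLFTest; R 4.3.3), with Benjamini-Hochberg adjustment over all genes tested and a threshold of 0.05. CPM used TMM-scaled library sizes, log2 CPM a prior count of 2, and RPKM the union of exons in GENCODE M21 (GRCm38). Intervals are 95%. Exact permutation tests ran over the 70 arrangements of 8 mice. Correlations with lists used log2 CPM and 100000 permutations of mice. The test was checked on simulated counts. DESeq2 1.42.0, limma 3.58.1 (voom), other scalings and filters, a muscle covariate and omission of mice were alternatives. All 9 members and the listed genes with the smallest p were named by a fixed rule, called genes first, as were the nearest 3 genes by r. Members and lists were chosen with earlier results of these data known. Counts of a member in a mouse ran from 33 (Mmp3) to 28341 (Mmp13), and were 332 or more for all members but Mmp3 and Mmp11.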

Additional observations from a re-analysis of the deposited data

Results flagged for a closer look

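Of 27 sets of 4 mice (9 members in 3 groups), 3 held a mouse set apart from the others of its group by Dixon's ratio of gap to range (95% critical value); chance alone flags about 1 in 20 sets, or 1.35 here. Mmp3 was highest in WT mouse 4, with a ratio of 0.861 (6.37 CPM against 1.27 to 1.97 CPM). Mmp3 was also highest in Jrt;Sost-het mouse 1, with a ratio of 0.850 (12.2 CPM against 2.81 to 4.23 CPM). Both are the mice with the highest sums of the chondrocyte list, 4079 and 4937 CPM, and the part of cartilage in Mmp3 was not tested. Mmp11 was highest in Jrt;Sost-ko mouse 3, with a ratio of 0.841 (9.53 CPM against 6.49 to 6.97 CPM). Without that mouse, Mmp11 had a log2 fold change of -0.39 in Jrt;Sost-ko versus Jrt;Sost-het mice (unadjusted p = 0.00415, adjusted p = 0.655, edgeR). It was the only 1 of 9 members with an unadjusted p under 0.05 in that fit, beside 7.4% of all genes.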

How the results depend on the processing

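No member was called in any comparison under any alternative run, and the lowest adjusted p of a member was 0.122. Of 450 values of a member under an alternative, 31 had the opposite sign, all of them values that were not called. With muscle genes as a covariate the log2 fold change was 0.0047 for Timp2 in Jrt;Sost-ko versus Jrt;Sost-het, -0.037 for Mmp11 in Jrt;Sost-het against WT, and 0.048 for Mmp13 and 0.030 for Timp3 in Jrt;Sost-ko against WT. In the last comparison Timp3 was at 0.037 with limma-voom, Timp2 at -0.0016 with TMM factors made without muscle, erythroid and neutrophil genes, and Mmp13 at 0.11 and Timp3 at 0.049 without WT mice 3 and 4. Leaving out 1 mouse at a time changed signs in Jrt;Sost-ko versus Jrt;Sost-het for Mmp13 (-0.41 to 0.064), Mmp14 (-0.085 to 0.23), Mmp2 (-0.029 to 0.25) and Timp2 (-0.19 to 0.028). It did so in Jrt;Sost-het against WT for Mmp11 (-0.10 to 0.19), Mmp13 (-0.31 to 0.22), Mmp14 (-0.055 to 0.36), Mmp16 (-0.096 to 0.40) and Timp2 (-0.00070 to 0.22). In Jrt;Sost-ko against WT it did so for Mmp3 (-0.37 to 0.97), Timp2 (-0.099 to 0.14) and Timp3 (-0.099 to 0.079). The count of all genes called in Jrt;Sost-ko versus Jrt;Sost-het was 1, and was 15 with DESeq2, 0 with limma-voom, 0 with the muscle covariate and 0 to 3 without 1 mouse. In Jrt;Sost-ko against WT it was 1, and was 14 with DESeq2, 2 with limma-voom, 2 with no filter and 0 to 2 without 1 mouse. The count of members above 0 in Jrt;Sost-het against WT was 8, and was 3 without WT mouse 2. The causes were not tested. No paired analysis was possible because the mouse numbers follow accession order and pair no mice. Depth limits Mmp3 most, which had 33 counts in 1 mouse, while every member but Mmp3 and Mmp11 had 332 or more in each.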
